A study of Caenorhabditis elegans with 6 samples.

Results

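Neuropeptides, insulin-like peptides and their receptors were compared between TGQ and WT animals of the nematode Caenorhabditis elegans. The genes were chosen by name (flp-, nlp-, ins-, npr-, frpr- or dmsr-) or by the gene ontology term for neuropeptide signalling in the authors' deposited table. This gave 22 of the 5792 genes in that table, of which 10 met both criteria, 8 the name alone and 4 the ontology term alone. The study measured polyadenylated RNA of whole animals at L4, the last larval stage, in 3 WT and 3 TGQ samples. Animals of both groups were raised at 20 °C on OP50 bacteria. WT is the strain SJ4100, known to carry GFP under the hsp-6 promoter as a transgene, and TGQ is given as a strain name that the labels do not expand. The labels state neither the alleles or transgenes of TGQ nor separate cultures for the replicates. The p-values therefore reflect sample-to-sample spread only, and that spread may be technical.

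Neuropeptides and insulin-like hormones are made as precursors, cut by proprotein convertases, often amidated at their C-terminus, packed into dense-core vesicles and released. FMRFamide-like (flp) and neuropeptide-like (nlp) precursors act mainly through G protein-coupled receptors. The insulin-like peptides (ins) act through the receptor DAF-2 as agonists or antagonists, in control of larval development, metabolism and lifespan. Some nlp genes instead encode small glycine-rich and aromatic peptides of the epidermis with roles in defence against fungi and bacteria.

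Few genes of this class were in the table. Of the annotated flp genes 1 of 31 was in it, of the nlp genes 11 of 72, of the ins genes 5 of 38, of the frpr genes 2 of 20, and of the 43 npr and 16 dmsr genes 0, against 28.1% of all annotated protein-coding genes. The members missing from it are not analysed here. The 18 precursor and hormone genes are short, with coding sequences of 213 to 978 bases in at most 5 exons, and the 4 receptor genes have 1095 to 1200 coding bases in 5 to 9 exons (WBcel235 annotation; no source used here names the build of the authors). On chromosome V lay 10 of the 22 genes, which holds 19.5% of the table's genes.

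The values are an expression signal per gene and sample whose unit the header does not name. They summed over all listed genes to 327792 to 349508 per WT sample and 282762 to 293887 per TGQ sample, and depth is unknown. Every gene of the table had an adjusted p-value of at most 0.0499 in the authors' own test of these samples, so a high share of calls is built into it. Limma on log2(value + 1) called a gene at an adjusted p under 0.05. That adjustment does not account for the earlier selection of the genes, so its p-values are likely too small. Tested were the 5540 genes that reached a value of 1 in 3 samples or more, and 90.2% of them were called, 45.6% higher and 44.6% lower in TGQ. Of the 22 genes 21 were tested, 11 were called higher, 9 lower, and 1, nlp-6, was not called. These counts include 3 low receptor genes that passed the filter through their high group (frpr-1, frpr-13 and ZC266.1). Of the other 18 genes, 9 were called higher and 8 lower. These shares are near those of the table. The groups did not overlap for any of the 22 genes, against 91.2% of the genes tested. The median log2 change was 0.49 over the 21 genes, 0.14 over the 18 genes without the receptors and -0.22 over all genes tested.

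**Figure D1:**
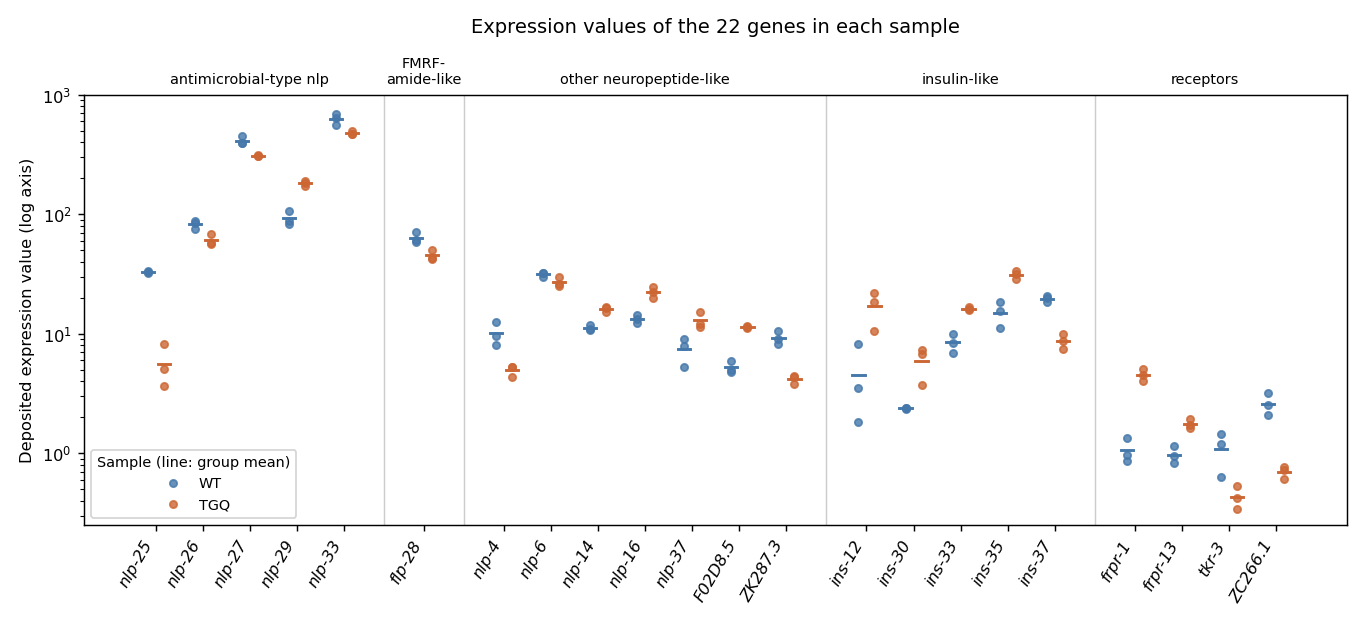
Expression values of the 22 genes in each sample on a log axis, WT in blue and TGQ in orange, each point a sample and each short line a group mean. In each gene the 3 TGQ samples lie apart from the 3 WT samples, above them for 11 genes and below them for 11.

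The 5 nlp genes of the antimicrobial type went both ways, with nlp-29 higher and nlp-25, nlp-26, nlp-27 and nlp-33 lower in TGQ. Their median log2 change was -0.41, and the sum of their values was 1246 ± 36.6 (SD, n = 3) for WT samples and 1035 ± 21.5 for TGQ samples. The sum over all genes of the table was also lower in TGQ, at 282762 to 293887 against 327792 to 349508 in WT. The other 17 genes of the list of 22 nlp and cnc defence peptides are not analysed here.

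The gene nlp-29 encodes an epidermal peptide known to be induced by fungal infection and wounding. It lies on chromosome V at 3984425 to 3984847 in WBcel235. Its value was 106, 82.0 and 88.1 in the WT samples and 172, 190 and 183 in the TGQ samples. All TGQ samples lay above the highest WT sample, WT replicate 1. The log2 change was 0.98 (SE 0.11, adjusted p = 9.34e-05), 1.97-fold by the ratio of the means.

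The gene nlp-27 lies 4530 bases downstream in the same nlp cluster, at 3989378 to 3989770, and is annotated with defence against Gram-negative bacteria in the deposited table. Its value was 452, 392 and 393 in WT and 308, 306 and 311 in TGQ. The TGQ samples were nearly equal to each other (coefficient of variation 0.886%) and all lay below WT. The log2 change was -0.41 (SE 0.09, adjusted p = 0.00201). Within each sample, the ratio of nlp-29 to nlp-27 does not depend on how samples are scaled. It was 0.236, 0.209 and 0.224 in WT and 0.558, 0.622 and 0.588 in TGQ, so the share of nlp-29 was higher in each TGQ sample. The genes of this cluster resemble each other, so reads may have been split between copies, and the cluster genes nlp-28, nlp-30, nlp-31 and nlp-34 are not analysed here. This pair was chosen after its values were seen, and the difference was not tested.

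The gene nlp-33, annotated with defence against fungi, lies at 11147346 to 11147737 of the same chromosome. It was at 561, 632 and 687 in WT and 466, 498 and 471 in TGQ, and WT replicate 1 came closest to TGQ. The log2 change was -0.39 (SE 0.09, adjusted p = 0.00401). The calls of nlp-27 and nlp-33 were lost after quantile normalization, with log2 changes of -0.03 (adjusted p = 0.642) and 0.10 (adjusted p = 0.349).

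The adjacent genes nlp-25 (19606180 to 19608419) and nlp-26 (19613461 to 19614534) were both lower in TGQ, by very different amounts. The value of nlp-25 was 33.5, 32.1 and 32.8 in WT and 8.23, 5.03 and 3.62 in TGQ. The WT samples were tightly grouped, with a coefficient of variation of 2.21%, and the TGQ samples were spread, with 42%. The log2 change of -2.41 (SE 0.22, adjusted p = 2.44e-05) was the 83rd lowest of the 5540 genes tested, and the WT mean was 5.83 times the TGQ mean. The value of nlp-26 was 87.3, 75.4 and 84.7 in WT and 57.7, 56.6 and 68.7 in TGQ, for a change of -0.43 in log2 (SE 0.11, adjusted p = 0.00604). The ratio of nlp-25 to nlp-26 was 0.384, 0.425 and 0.387 in the WT samples and 0.143, 0.0889 and 0.0527 in the TGQ samples. This pair was also chosen after its values were seen, and the difference in ratio was not tested. An end of 29 bases of nlp-26 overlaps the opposite-strand gene Y43F8C.3, and the counting is not stated to use strand.

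Epidermal and moulting genes moved in the same samples. Of 13 listed hypodermis markers 8 were tested and 6 called higher, against 45.6% of the genes tested. The other 2, dpy-13 (log2 change -0.26) and nekl-2 (-0.27), were not called. Summed values of the markers overlapped between groups, at 1493 to 2168 in WT and 1761 to 1873 in TGQ. Most of that sum came from dpy-13, with a WT mean of 1699. All 10 tested moulting genes of 16 listed were called higher, with sums of 204 to 260 in WT and 562 to 687 in TGQ. None of the listed markers in the table was at 0 in any sample. Their part in the changes of the nlp genes was not tested. In RNA of whole animals, a change in the number of cells of a type and a change in RNA per cell cannot be told apart.

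**Figure D2:**
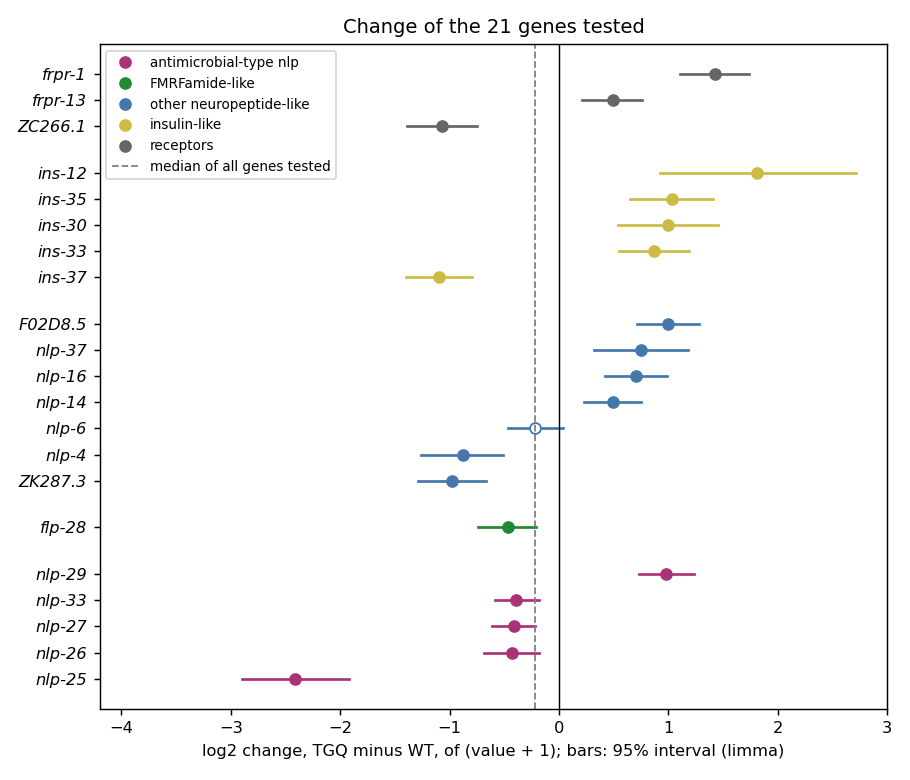
The log2 change of value + 1, TGQ minus WT, for the 21 genes tested, with 95% intervals from limma, grouped by role. Filled points were called, the open point (nlp-6) was not, and the dashed line is the median of all 5540 genes tested, -0.22.

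Of the 8 other neuropeptide precursors, 4 were higher in TGQ (F02D8.5, nlp-37, nlp-16 and nlp-14), 3 were lower (ZK287.3, nlp-4 and flp-28), and nlp-6 was not called. The gene F02D8.5, at 14971436 to 14972419 of chromosome V, is named nlp-59 in the current annotation. It stood at 5.01, 5.94 and 4.74 in WT and 11.3, 11.5 and 11.4 in TGQ. The TGQ samples agreed within a coefficient of variation of 1.1%, and all lay well above WT. Its log2 change was 1.00 (SE 0.13, adjusted p = 0.000155).

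The gene nlp-37, at 2163384 to 2164069 of chromosome X, is named pdf-2 in the current annotation. It encodes a pigment dispersing factor, a peptide family known for control of locomotion. Its value was 7.92, 8.98 and 5.25 in WT and 15.2, 12.1 and 11.5 in TGQ, for a change of 0.75 in log2 (SE 0.19, adjusted p = 0.00535). The receptor gene of these peptides, pdfr-1, was also higher. It stood at 4.33, 3.05 and 4.19 in WT and 6.90, 7.08 and 7.21 in TGQ, for a change of 0.74 in log2 (SE 0.14, adjusted p = 0.00133). With a pseudocount of 5 the change of pdfr-1 was 0.45. For both the ligand and the receptor gene, the lowest TGQ sample lay above the highest WT sample. Full separation of WT from TGQ, in either direction, was usual in this table, at 91.2% of 5540 genes. A link between the ligand and receptor changes was not tested.

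The gene nlp-16 was at 14.4, 12.2 and 13.2 in WT and 22.3, 24.6 and 19.9 in TGQ, 1.68-fold by the means (log2 change 0.70, SE 0.13, adjusted p = 0.00102). The gene nlp-14, whose peptides are known from the sleep-promoting neuron ALA, was at 10.8, 11.8 and 11.02 in WT and 16.7, 16.4 and 15.3 in TGQ. Its log2 change was 0.49 (SE 0.12, adjusted p = 0.00367). In both genes the spread within a group was small, with coefficients of variation from 4.53% to 10.4%.

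Among the falls, ZK287.3, described in the deposited table as a neuropeptide-like protein and named cthd-1 in the current annotation, was at 10.52, 9.04 and 8.15 in WT and 4.35, 3.76 and 4.44 in TGQ. The log2 change was -0.98 (SE 0.14, adjusted p = 0.000253), and it was -0.63 with a pseudocount of 5. The gene nlp-4, whose product carries a transthyretin-like domain in the deposited annotation, was at 12.6, 8.05 and 9.52 in WT and 5.22, 5.23 and 4.33 in TGQ. Its log2 change was -0.88 (SE 0.17, adjusted p = 0.00129). For both genes the WT mean was more than 2 times the TGQ mean.

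The FMRFamide-like precursor gene flp-28, at 10087314 to 10087966 of chromosome X, was the sole flp gene. It stood at 60.3, 58.0 and 71.4 in WT and 49.8, 43.2 and 42.4 in TGQ, for a change of -0.47 in log2 (SE 0.12, adjusted p = 0.00505). All 653 bases of the gene lie within the opposite-strand gene W07E11.1, and 0 of its 547 exon bases overlap exons of that gene. The value of nlp-6 was 29.96, 32.1 and 32.4 in WT and 26.2, 29.6 and 25.1 in TGQ. These groups did not overlap, but the change of -0.22 (SE 0.11) had an adjusted p of 0.0899. Under a scaling inferred from the authors' fold changes, nlp-6 was called lower (log2 change -0.34, adjusted p = 0.0171). Leaving out WT replicate 1 also gave a call as lower (-0.25, adjusted p = 0.0465).

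Of the 5 insulin-like peptide genes, 4 were higher in TGQ (ins-12, ins-35, ins-30 and ins-33) and 1 was lower (ins-37). Their log2 changes ran from -1.10 to 1.81 with a median of 1.00. Summed over the 5 genes, the values came to 50.9, 48.2 and 50.8 in the WT samples and to 72.2, 78.7 and 85.8 in the TGQ samples. Called changes of at least 2-fold on the log2(value + 1) scale numbered 2 higher and 1 lower here, and 3 higher and 3 lower among all 22 genes, against 6.57% and 13.1% of the genes tested. Among the 22, frpr-1 and ZC266.1 passed the filter through their high group, and without them the counts were 2 higher and 2 lower.

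The gene ins-12, on chromosome II at 5554617 to 5555361, had the highest change of the 21 genes on the log2(value + 1) scale, where it was the 43rd highest of the 5540. By the ratio of the means, frpr-1 was higher (4.27 against 3.75 for ins-12). Its value was 8.21, 1.84 and 3.54 in WT and 10.6, 18.5 and 21.8 in TGQ. It was also the most variable of the 22 genes within WT, with a coefficient of variation of 72.8% against a median of 14.4% for the genes tested. The lowest TGQ sample exceeded the highest WT sample by little. The log2 change was 1.81 (SE 0.40, adjusted p = 0.0028), with a 95% interval from 0.92 to 2.71. With replicate number added to the limma model, ins-12 was not called (adjusted p = 0.0677).

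The gene ins-35, on chromosome V at 20375536 to 20376302, was at 11.2, 15.5 and 18.3 in WT and 31.7, 28.6 and 33.2 in TGQ. All TGQ samples stood well above WT, 2.08-fold by the means, with a log2 change of 1.03 (SE 0.17, adjusted p = 0.000601). The gene ins-33, known for a role in larval germline proliferation through DAF-2, lies on chromosome I at 13637845 to 13639311. It was at 8.42, 10 and 6.95 in WT and 16.2, 15.7 and 16.7 in TGQ, for a change of 0.87 in log2 (SE 0.14, adjusted p = 0.000603). The gene ins-30, on the same chromosome at 14034954 to 14036057, was at 2.38, 2.35 and 2.41 in WT. In TGQ it was at 3.75, 7.32 and 6.76. WT was nearly constant and TGQ replicate 1 lay apart from the other TGQ samples. The log2 change of ins-30 was 1.00 (SE 0.20, adjusted p = 0.00179). With a pseudocount of 5 the change of ins-30 was 0.55.

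The fall was that of ins-37, on chromosome II at 13835101 to 13836107. Its value was 20.7, 18.5 and 19.7 in WT and 9.93, 8.73 and 7.41 in TGQ, for a change of -1.10 in log2 (SE 0.13, adjusted p = 0.000127). The ratio of ins-35 to ins-37 within a sample was 0.539, 0.836 and 0.926 in WT and 3.19, 3.27 and 4.48 in TGQ. The ratio of ins-33 to ins-37 was 0.406, 0.54 and 0.353 in WT and 1.63, 1.79 and 2.25 in TGQ. Both ratios were below 1 in every WT sample and above 1 in every TGQ sample. These pairs were also chosen after their values were seen. Exons of ins-37 overlap an annotated same-strand snRNA over 171 bases and an opposite-strand non-coding RNA over 192 bases.

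**Figure D3:**
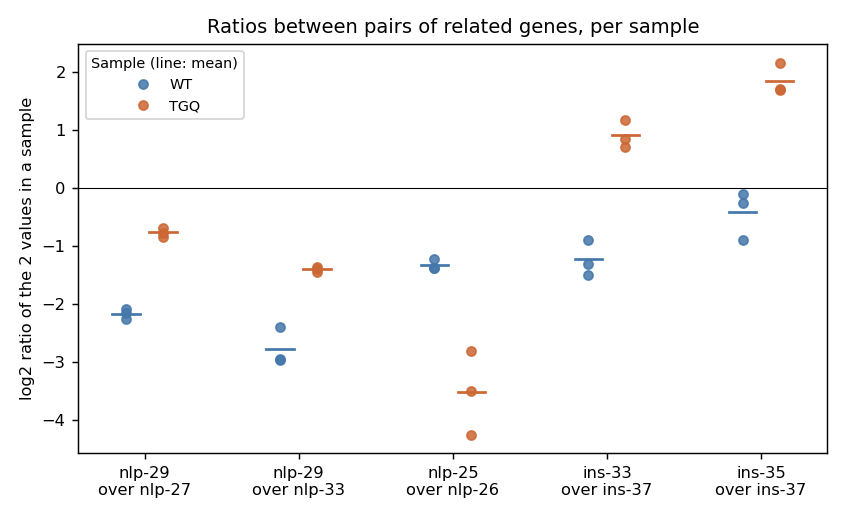
The log2 ratio of 2 related genes within a sample, WT in blue and TGQ in orange, each point a sample and each short line a group mean. The pairs were chosen after their values were seen. The ratio of nlp-29 to nlp-27 lies from -2.26 to -2.09 in WT and from -0.84 to -0.68 in TGQ, and both ins ratios lie below 0 in WT and above 0 in TGQ.

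Among genes downstream of insulin-like peptides, 4 of 21 listed were in the table, 3 called higher and 1 lower. Of all genes tested 45.6% were called higher and 44.6% lower. The insulin receptor substrate homologue gene ist-1 was at 2.24, 1.42 and 1.67 in WT and 3.95, 3.53 and 3.91 in TGQ, for a change of 0.80 in log2 (SE 0.14, adjusted p = 0.000943). The kinase gene akt-2, which acts against the transcription factor DAF-16, was at 6.12, 4.39 and 4.98 in WT and 9.11, 8.29 and 9.04 in TGQ (log2 change 0.68, SE 0.14, adjusted p = 0.00196). The gene pdk-1, whose product activates AKT kinases, changed by 0.49 (adjusted p = 0.00936). With a pseudocount of 5 the changes of ist-1, akt-2 and pdk-1 were 0.38, 0.45 and 0.24.

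In the same samples all 17 tested oocyte and eggshell markers of 18 listed were called lower. Their sums were 1376 to 1875 in WT and 289 to 452 in TGQ. All 31 tested of 34 sperm markers were also called lower, with sums of 10822 to 13407 and 3554 to 4396. Of all genes tested 44.6% were called lower. The part of these markers in the changes of the genes of this pathway was not tested. The 14-3-3 protein gene par-5 was barely called lower (-0.17, adjusted p = 0.049). Its log2 change was 0.31 and called higher after quantile normalization (adjusted p = 0.00391). The par-5 call was lost without WT replicate 2 (adjusted p = 0.084), WT replicate 3 (0.117), TGQ replicate 1 (0.105), TGQ replicate 2 (0.103) or TGQ replicate 3 (0.133), and also with a pseudocount of 5 (0.0519) and with eBayes without trend and robust options (0.132). The receptor gene daf-2 and the gene of its transcription factor target, daf-16, are not analysed here.

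Of the 4 receptor genes, frpr-1 and frpr-13, of the FMRFamide peptide receptor family, were higher in TGQ and ZC266.1 was lower, while tkr-3 did not reach the filter on values. All 4 had low values. The gene frpr-1, on chromosome X at 8124083 to 8129643, was at 1.35, 0.87 and 0.96 in WT and 4.01, 4.53 and 5.04 in TGQ. The TGQ mean was 4.27 times the WT mean, and the log2 change was 1.43 (SE 0.14, adjusted p = 3.89e-05). By the p-value in the authors' deposited table it ranked 578th of 5792, the highest rank among the 22 genes, with a log2 fold change of 1.95 in the authors' deposited table. The gene frpr-13 was at 0.94, 0.83 and 1.14 in WT and 1.71, 1.95 and 1.62 in TGQ, for a change of 0.49 in log2 (SE 0.12, adjusted p = 0.00524).

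The gene ZC266.1, on chromosome V at 4694972 to 4700289, encodes a rhodopsin-family receptor in the deposited annotation. It was at 3.17, 2.07 and 2.54 in WT and 0.77, 0.61 and 0.72 in TGQ, for a change of -1.07 in log2 (SE 0.14, adjusted p = 0.000189). It passed the filter only through its WT samples, and frpr-1 and frpr-13 would have passed on their TGQ samples alone, with 1 WT sample each at the minimum. A gene that passes through its high group has to differ, so these 3 calls are no more than a description of their values. The added 1 weighs on such values. With a pseudocount of 0.1 and of 5, the log2 changes were 2.01 and 0.65 for frpr-1, 0.80 and 0.18 for frpr-13, and -1.74 and -0.41 for ZC266.1. The tachykinin receptor gene tkr-3 was at 1.46, 1.19 and 0.63 in WT and 0.42, 0.34 and 0.53 in TGQ and was not tested. Its log2 fold change in the authors' deposited table was -1.47, with an adjusted p of 0.00739.

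Other peptide receptors came from a list of 33, of which 4 were in the table and 2 tested, pdfr-1 and seb-3, both called higher. The other 2, tkr-3 and gnrr-7, had lower values in TGQ and did not reach the filter. With no filter all 4 were fitted, 2 called higher and 2 lower. The receptor gene seb-3, of the secretin family, was at 1.27, 1.29 and 1.40 in WT and 1.79, 3.10 and 2.48 in TGQ (log2 change 0.56, SE 0.15, adjusted p = 0.00803, and 0.23 with a pseudocount of 5). The gene gnrr-7 was at 0.72, 1.17 and 1.16 in WT and 0.37, 0.48 and 0.39 in TGQ and was not tested.

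Of 11 listed enzymes that make or break down peptides, 4 were in the table. All 4 were called higher, against 45.6% of the genes tested. Their median log2 change was 0.51 against -0.22 for all genes tested. Marker lists of neuron, muscle, hypodermis and intestine had medians of 0.66, 0.71, 0.69 and 0.64, all above that of these enzymes. Those of oocyte and eggshell and of sperm had -1.91 and -1.6. The gene pamn-1, of the amidating monooxygenase family, was at 7.87, 3.90 and 5.41 in WT and 12.1, 11.2 and 9.70 in TGQ (log2 change 0.87, SE 0.21, adjusted p = 0.00374). The gene pgal-1, for the lyase step of amidation, was at 38.5, 38.02 and 41.3 in WT and 52.0, 58.5 and 58.1 in TGQ (0.50, SE 0.10, adjusted p = 0.00193). The proprotein convertase gene kpc-1 changed by 0.51 (SE 0.12, adjusted p = 0.00369). The neprilysin gene nep-2, of a family of peptide-degrading proteases, changed by 0.46 (adjusted p = 0.0174). The nep-2 call was lost under the scaling inferred from the authors' fold changes (adjusted p = 0.0561). It was also lost when leaving out WT replicate 2 (0.0566), TGQ replicate 1 (0.0586) or TGQ replicate 2 (0.0584). The main neuronal processing enzyme genes egl-3 and egl-21 are not analysed here.

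Of 21 listed dense-core vesicle genes, 7 were tested, 5 called higher and 0 lower, against 45.6% and 44.6% of the genes tested. The median log2 change of the 7 was 0.47, against 0.66 for neuron, 0.71 for muscle, 0.69 for hypodermis and 0.64 for intestine markers. The gene hid-1, needed for these vesicles, was at 7.45, 5.54 and 6.95 in WT and 10.1, 9.96 and 10.4 in TGQ (log2 change 0.55, SE 0.14, adjusted p = 0.00459). The kinesin gene unc-104, which carries vesicles along axons, changed by 0.54 (adjusted p = 0.00467, and 0.36 with a pseudocount of 5), and the small GTPase gene rab-6.2 by 0.54 (adjusted p = 0.00129). The rabphilin gene rbf-1 changed by 0.47 (adjusted p = 0.0185), a call lost without WT replicate 2 (0.0626), TGQ replicate 1 (0.0574) or TGQ replicate 2 (0.0615). The gene vps-50 changed by 0.44 (adjusted p = 0.0149), a call lost without WT replicate 3 (0.0506) or TGQ replicate 1 (0.0595). With a pseudocount of 5 the changes of rbf-1 and vps-50 were 0.23 and 0.22. The tomosyn gene tom-1 (0.25, adjusted p = 0.0928) was called higher after quantile normalization (0.36, adjusted p = 0.00465) and without WT replicate 1 (0.32, adjusted p = 0.0279), and rab-10 was not called (-0.06, adjusted p = 0.588). The genes unc-31 and ida-1 are not analysed here.

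Of 26 listed neuron markers, 7 were in the table and all 7 were called higher, against 45.6% of the genes tested. The gene unc-104 is both a neuron marker and a listed dense-core vesicle gene. The 7 markers had log2 changes from 0.54 to 0.75, a median of 0.66, and summed values of 56.7 to 73.1 in WT and 103 to 107 in TGQ. Of the 8 neuropeptide precursors outside the antimicrobial type, 4 lay above 0 and 4 below. Muscle markers, 4 of 12 tested, were all called higher, with sums of 107 to 157 and 183 to 230. Of 14 intestine markers 4 were tested, 3 called higher and 1 lower, with sums of 455 to 524 and 467 to 487. No marker in the table was at 0 in any sample. The part of neuron content in the changes of the peptide genes was not tested.

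**Figure D4:**
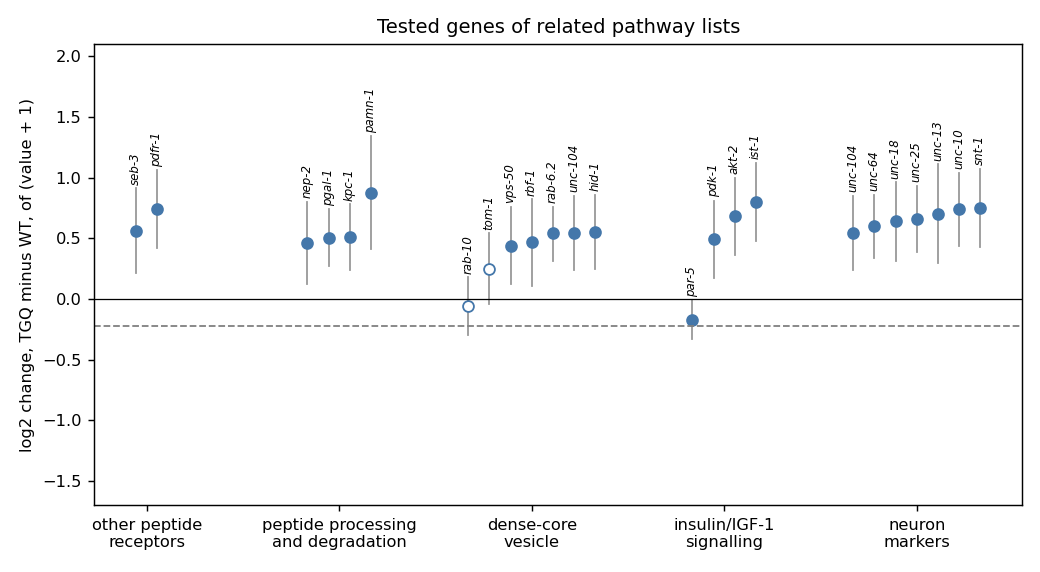
The log2 change of value + 1, TGQ minus WT, with 95% intervals from limma, for the tested genes of 4 pathway lists and of the neuron markers, with filled points called and open points not called. The 7 neuron markers, of which unc-104 is also plotted as a vesicle gene, lie between 0.54 and 0.75, the insulin pathway runs from -0.17 (par-5) to 0.80 (ist-1), and the dashed line is the median of all genes tested.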

How the data were processed

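The authors' deposited table holds an expression signal per gene for each of 6 samples, with group means, a fold change (ratio of TGQ to WT), its log2, a p-value and an adjusted p-value, per the file headers. The signal is no read count and its unit is not named. TopHat2 and RSEM are named per the submitters' processing notes, and no source used here names the genome build. Samples were grouped by title. The planned design had limma for values that are not counts. The limma model (version 3.58.1, R version 4.3.3) used log2(value + 1) of genes at 1 or more in at least 3 samples, group as its only term, and trend and robust options in eBayes. Benjamini-Hochberg adjustment ran over all 5540 genes tested, each already selected by the authors' test of the same samples. It does not account for that selection. The fit was also run on simulated data, in which most genes were unchanged and none was first selected by a test. That run does not show whether the p-values here are right. Standard errors and 95% intervals are limma's. The change on this scale understates that of low genes. The genes and lists were chosen with earlier results of these data known. Every one of the 22 genes could be named, with values by sample for the largest changes and highest levels of each role, and up to 4 called genes of each related list. The values of nlp-6, tkr-3, gnrr-7, tom-1 and rab-10 were added because they were not called or not tested. List genes were matched by gene ID, and 1 gene of the insulin signalling list is not reported here. No gene sequence was used.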

Additional observations from a re-analysis of the deposited data

How the results depend on the processing

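The alternative called the authors' scaling shifted TGQ values by -0.131 on the log2 scale. That shift was estimated here from the authors' fold changes and group means. Further alternatives were quantile normalization, pseudocounts of 0.1 and 5, no filter and a filter of 5. The model was also run with eBayes without options, with the replicate block and leaving out each sample. Over the 21 genes and these alternatives, 282 values kept their direction and side of the threshold. The exceptions were nlp-6, which gained a call with the authors' scaling and without WT replicate 1, nlp-27 and nlp-33, which lost theirs after quantile normalization (0.10 for nlp-33, a reversed sign), and ins-12. The cause was not tested. Reversed signs among related genes were those of par-5 (0.31) and rab-10 (0.03) after quantile normalization and, with single samples left out, of rab-10 (range -0.11 to 0.04, above 0 without WT replicate 1). The median of all genes tested was -0.22, against -0.10 under quantile normalization and -0.35 under the scaling of the authors. The authors' scaling called 2296 genes higher and 2874 lower. Leaving out single samples gave 4331 to 4702 calls in the table, against 4998, and 8 to 9 of the 22 genes called lower. When any WT sample was left out, ZC266.1 fell under the filter and was not tested. Without WT replicate 1 the 9 genes called lower included nlp-6. The count called higher was 11, and 8 with the filter of 5, under which 3 of them were not tested. Whether replicate numbers pair the samples is not known. Same-numbered deviations from group means correlated at 0.247, -0.0115 and 0.16, and not every sample correlated best with its own number. With 3 samples per group, these correlations cannot exclude pairing. With the replicate block 5137 genes were called, and 10 of the 22 genes were called higher and 9 lower, ins-12 having an adjusted p of 0.0677. Without a known depth, no counting error can be given.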
